A study of Mus musculus and Homo sapiens with 47 samples.

Results

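Enterocyte-like cells were examined in the day 16 single-cell library of a mouse intestinal stem cell sort. The cells were chosen by their own RNA: a barcode was taken when 6 enterocyte genes (Fabp1, Fabp2, Apoa1, Apob, Apoc3 and Alpi) made up at least 0.4% of its UMIs (unique molecular identifiers, each standing for 1 captured RNA molecule) and at least 3 of the 6 were detected. Of 2792 kept day 16 cells, 71 met this rule, or 2.54% (95% exact Clopper-Pearson interval 1.99 to 3.20%). They are called gated cells here, and the comparison group is the 2721 other kept day 16 cells of the same library. The mice carried 2 floxed alleles of Eed, a core subunit of Polycomb repressive complex 2, together with Lgr5EGFP-IRES-CreERT, which puts GFP and a tamoxifen-inducible Cre under the stem cell gene Lgr5, on a B6;129 mixed background. They received 1 to 2 mg tamoxifen on 5 consecutive days and on alternate days afterwards, epithelium was taken from the proximal 1/3 of the intestine, and GFP-positive cells were sorted. There is 1 library each for days 7, 12 and 16, and the titles call the cells adult intestinal stem cells. The labels do not state the number of mice, an age beyond adult or the event from which days run. No wild-type single-cell library was analysed here. All 3 libraries therefore share the genotype and the tamoxifen, and cells without recombined Eed may be among those sorted.

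Enterocytes are the absorptive cells that cover the villus. They arise from dividing crypt progenitors, leave the cell cycle as they reach the villus, build a brush border of microvilli loaded with digestive enzymes and transporters, and package absorbed fat with apolipoproteins into chylomicrons. The fatty acid binding proteins Fabp1 and Fabp2 carry lipid inside the cell, Apoa1, Apob and Apoc3 are lipoprotein components, and Alpi is the intestinal alkaline phosphatase of the brush border. Polycomb repressive complex 2 methylates histone H3 on lysine 27 and holds developmental regulators and the cell cycle inhibitor gene Cdkn2a silent in many tissues.

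Kept cells (at least 2500 UMIs, at least 500 genes and at most 20% of UMIs from mitochondrial transcripts) numbered 3833, 4664 and 2792 at days 7, 12 and 16, with median depths of 7945, 7572 and 11875 UMIs. Kept barcodes shared between libraries numbered 4 for days 7 and 12, 1 for days 7 and 16 and 4 for days 12 and 16. Eed itself had 18 UMIs in the gated cells, a level of 17.8 counts per 1000000 UMIs (CPM), against 26.9 CPM in the other day 16 cells, and the interval of the ratio (0.390 to 1.05) included 1. Its level in the cells outside the gate was 54.4 CPM at day 7 and 27.5 at day 12. Reads of a 3′ library need not cover the floxed part of the gene, so these levels do not check the deletion. Every comparison below sets sums over cells of 1 library against each other, so none has a replicate check and no test was made. Intervals cover counting error only.

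The sequences of 2 promoters are shown because both genes were high in the gated cells and both hold the 9 letters CAAAGTCCA, a core recognised by the enterocyte factors HNF4A and HNF4G. The 250 bases before the start of each gene are printed 5′ to 3′ on the gene's strand with these letters in capitals, from RefSeq on GRCm38.p6.
Alpi, chr1:87101607-87101856, minus strand: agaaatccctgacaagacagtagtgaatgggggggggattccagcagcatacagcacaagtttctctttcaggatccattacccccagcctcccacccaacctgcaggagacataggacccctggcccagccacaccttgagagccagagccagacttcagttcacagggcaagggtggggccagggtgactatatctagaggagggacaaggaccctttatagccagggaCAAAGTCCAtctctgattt
Cyp3a11, chr5:145879855-145880104, minus strand: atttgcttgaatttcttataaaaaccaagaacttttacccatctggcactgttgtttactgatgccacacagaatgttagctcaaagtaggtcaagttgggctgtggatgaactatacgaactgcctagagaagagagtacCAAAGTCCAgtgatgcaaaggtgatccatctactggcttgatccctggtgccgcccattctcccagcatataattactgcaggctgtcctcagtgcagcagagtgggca
In Alpi, a gene of the selection rule, the letters lay 19 to 11 bases before the start. In Cyp3a11, a drug-metabolising cytochrome P450 whose UMIs lay mostly in the gated cells (197 against 12 in the others), they lay 109 to 101 bases before it. Searched on both strands over the same window, the HNF4 letters were found in 0.495% of 16775 genes with a promoter in the table and in 0.471% of the 8495 tested genes with one. They were found in 14 of 849 genes at least 2-fold higher in gated cells (1.65%) and in 5 of 2220 genes at least 2-fold lower (0.225%). Among genes with a promoter, Alpi was the only match of 5 gate markers. Cyp3a11 was the only match of 17 among the 20 largest ratios. The GATA letters AGATAA were in 10.4% of the higher, 6.80% of the lower and 7.23% of the tested genes, and the CDX letters TTTATGG were in 2.12%, 1.85% and 1.97%. A match is a run of letters and not a bound site.

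The gate markers chose the cells, so their levels are a description. The share of UMIs from the 6 genes ran from 0.409% to 7.88% with a median of 0.940% over the 71 gated cells, and its median over the other cells was 0.0313%. The distribution was uneven: 33 gated cells reached 1% and 22 reached 2%, while 20 lay between 0.4 and 0.6%. The 5 members nearest the threshold had shares of 0.409, 0.411, 0.421, 0.423 and 0.434%, and the 5 cells nearest to it from below, with at least 3 markers detected, had 0.390, 0.387, 0.376, 0.370 and 0.365%. In all, 58 day 16 cells lay between 0.2 and 0.4%, so the gate cuts a continuous range and the number of cells depends on where it is set. All 6 markers were detected in 36 gated cells, 5 in 17 cells, 4 in 14 and 3 in 4. A further 4 cells met the share with fewer than 3 markers and stayed out.

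Fabp1 was the most abundant of the 6, with a pooled level of 10090 CPM in gated and 136.7 in other cells, and its level over single gated cells ran from 0 through a median of 5640 to 40470. Fabp2 was at 5212 and 256.9 CPM in the same order. Apoa1, the main protein of high-density lipoprotein, was at 3071 against 14.7, and Apob at 791.2 against 64.7. Apoc3 was at 376.9 against 8.19, and Alpi at 241.7 against 5.45. Fabp2 was detected in all 71 gated cells and Fabp1 in 70, while Apoc3 was detected in 45.

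**Figure D1:**
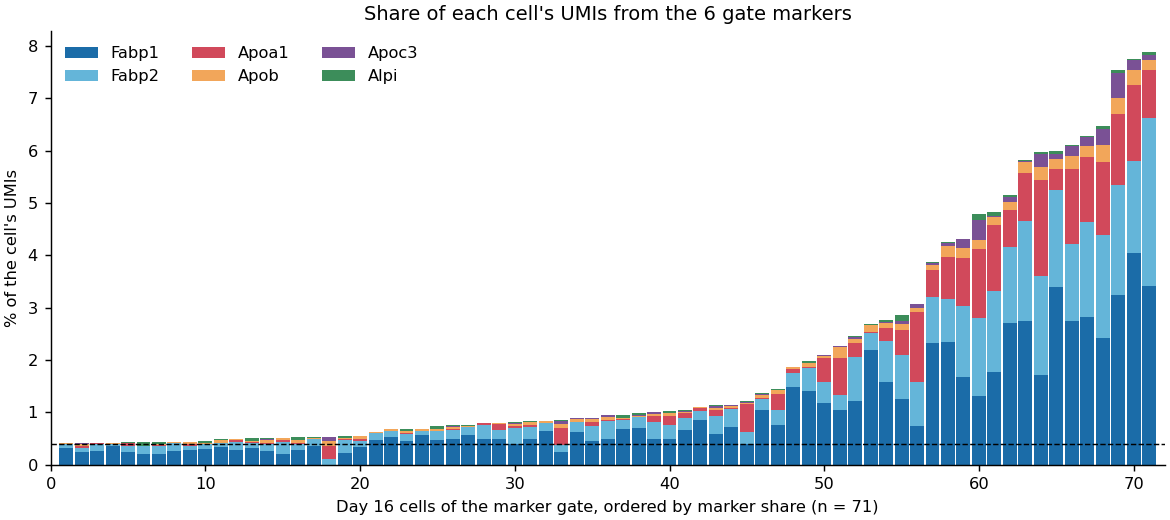
Each bar is 1 of the 71 gated day 16 cells, ordered by the percentage of its UMIs from the 6 gate markers (vertical axis, stacked by gene), and the dashed line is the 0.4% threshold. The median is 0.940%, 20 cells lie between 0.4 and 0.6%, and 22 cells reach 2%. In these 22 the parts of Apoa1, Apob and Apoc3 beside Fabp1 and Fabp2 vary from cell to cell.

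Markers of other cell types were lower in the gated cells than in the rest of the library. Median depth was 13424 UMIs in gated and 11810 in other cells, median genes detected 3115 and 3086, and median mitochondrial share 13.3% and 10.9%. The 15 Paneth cell markers together took 83.9 CPM in gated cells, 8883 in the other cells and 7453 in barcodes of at most 100 UMIs, which hold mostly free RNA. The level in gated cells was thus 1.13% of that in free RNA, and the 6 gate markers together made up 0.154% of free RNA. How much free RNA the gated cells hold was not tested. The 14 goblet cell markers took 368 CPM in gated and 6102 in other cells, although 38 gated cells lay above the other cells' median for that list. By the same kind of rule (0.4% of UMIs and at least 3 markers), 2 gated cells also met a goblet gate, 1 an enteroendocrine gate and none a Paneth or tuft gate. The enteroendocrine cell held 510 UMIs of the secretory granule gene Chgb and 837 of the 882 enteroendocrine marker UMIs of all gated cells. Immune markers had UMIs in 2 gated cells, and 1 of these held 61 of their 63 UMIs, among them all 17 of Gzma. The pan-leukocyte gene Ptprc was at 0 UMIs in the gated cells, which, at 3 cells, allows up to 4.23% of them to hold a UMI. Stromal and endothelial markers summed to 1 UMI, and erythroid markers to 0.

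Of 11168 genes with at least 50 UMIs in all kept day 16 cells, leaving out the gate markers, 1104 were at least 2-fold higher in gated cells (9.89%) and 2961 at least 2-fold lower (26.5%). These shares are the background for every list below. Genes that reached the 50 UMIs only with the gated cells are among the 1104, so the background includes calls set by the filter. It was not computed for genes that reached the minimum in the other cells alone. List counts limited to such genes below therefore have no equally limited background. The rule chose the cells by genes of the same libraries, so the counts describe the gated cells and test nothing. The median gene had a log2 ratio of -0.36, and with that median set to 0 the counts were 1785 higher and 2048 lower, which moved the share of higher calls among all calls from 27.2% to 46.6%. Genes without a UMI in the gated cells were counted as lower only where 3 UMIs, the upper limit that a count of 0 allows, would still be 2-fold lower. Raising the gene minimum to 200 UMIs left 778 higher and 2546 lower of 8950. Among cells with at most 10% mitochondrial UMIs only 5 gated cells were left, and 1428 genes were higher and 762 lower of 9731.

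**Figure D2:**
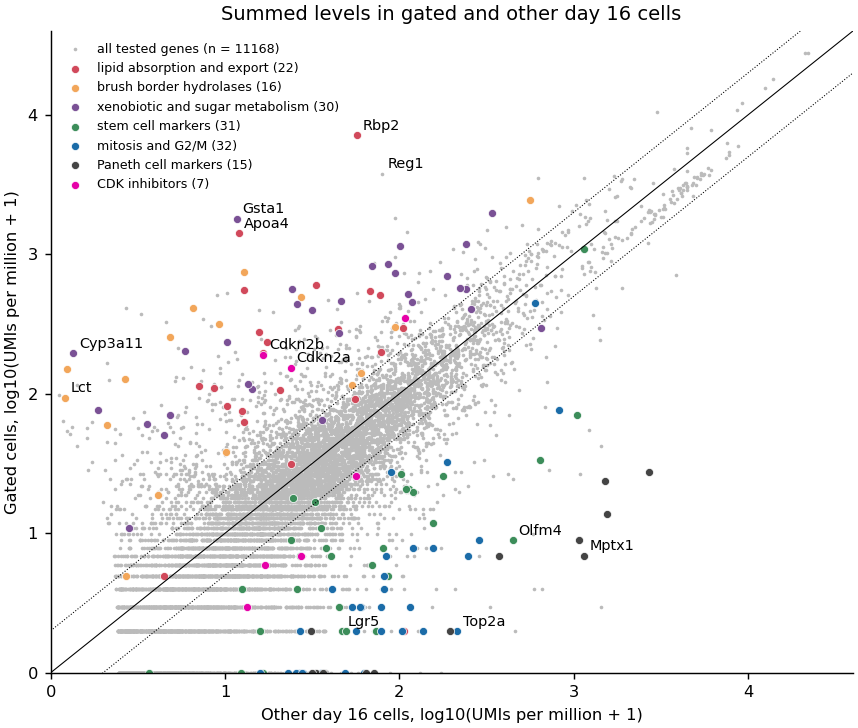
Each point is a gene, at its pooled level in other day 16 cells (horizontal) and gated cells (vertical), as log10 of CPM plus 1; the solid line marks equal levels, the dotted lines 2-fold, and colours mark 7 gene lists. Rbp2, Gsta1 and Apoa4 lie far above the lines and most stem cell, mitotic and Paneth genes below them.

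Genes of lipid absorption and export outside the rule took 12950 CPM in gated cells and 779.9 in the others, and 70 of 71 gated cells lay above the 95th percentile of the others. Of 22 tested members, 18 were at least 2-fold higher in gated cells and 1 was lower, against 9.89% and 26.5% of all tested genes, and their median log2 ratio was 2.89. Rbp2, the retinol binding protein of the absorptive cell, was found in all 71 gated cells, with a lowest, median and highest single-cell level of 76.5, 3455 and 30120 CPM. Its pooled level was 7134 CPM in gated and 56.0 in other cells, 127-fold apart (interval 121 to 134). Apoa4, an apolipoprotein made during fat absorption, had a single-cell median of 229.6 and a highest level of 12810 CPM, was absent from 12 gated cells, and was 129-fold higher in the pool (115 to 145). Apoc2, the activator of lipoprotein lipase, was 46.8-fold higher (41.1 to 53.3). Mttp, which loads lipid onto apolipoprotein B, was 18.8-fold higher (17.03 to 20.8), and the acyltransferase Mogat2, which rebuilds triglyceride, 18.7-fold higher (16.1 to 21.7). The exception was Clps, a lipase cofactor, with 1 UMI in gated cells and 104.8 CPM in the others.

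Of 20 brush border hydrolases listed, 19 were in the files and 16 reached the 50 UMIs, and these 16 were at least 2-fold higher with a median log2 ratio of 4.75. For 3 of them (Lct, Ggt1 and Treh) the minimum was reached only with the gated cells, where they were high, so their call was set by the filter; the other 13 reached it in the other cells alone. The same held for 4 of the 23 transporters and 2 of the 30 xenobiotic genes tested below. Sucrase-isomaltase, Sis, was found in 66 gated cells, with a median of 352.2 and a highest level of 3545 CPM, and was 63.4-fold higher in the pool (56.1 to 71.7). The metalloprotease subunit Mep1b was 73.7-fold higher (62.0 to 87.9). Lactase, Lct, was detected in fewer cells: it was found in 17 gated cells, with 94 UMIs there and 7 in all 2721 others, a pooled ratio of 454.5 (212 to 1161). The gamma-glutamyl transferase Ggt1 was found in 27 gated cells, with a ratio of 639 (316 to 1507). The wide intervals of both genes come from the few UMIs in the other cells.

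Transporters followed the same direction, 20 of 23 tested members being higher and 1 lower, with a median log2 ratio of 2.89. The sodium-glucose transporter Slc5a1 was 5.22-fold higher (4.62 to 5.89), at 305.8 against 58.6 CPM. The fructose and glucose exit carrier Slc2a2 and the peptide transporter Slc15a1 had few UMIs outside the gated cells, at 50.3 against 0.292 and 57.2 against 0.321 CPM. They were found in 20 and 26 gated cells. Both reached the 50-UMI minimum only with these cells, so the filter set their calls. The bile acid exporter subunits Slc51a and Slc51b were 19.1-fold and 41.2-fold higher. In iron and calcium handling 3 of 7 tested genes were higher, among them S100g, the calcium-binding calbindin of the duodenum, at 247.6 against 27.5 CPM, and ferritin heavy chain Fth1 at 10550 against 2989.

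Enzymes of xenobiotic and sugar metabolism were higher for 27 of 30 tested members and lower for 1, with a median log2 ratio of 3.27. The glutathione transferase Gsta1 had a single-cell median of 938.4 and a highest level of 9658 CPM, and a pooled ratio of 168 (150 to 189). Cyp3a11 was found in 25 gated cells, with 197 UMIs against 12 in all 2721 others, and had a ratio of 556 (311 to 1094). Among the 20 largest ratios were also the guanine deaminase Gda (150-fold), the retinaldehyde dehydrogenase Aldh1a1 (63.4-fold), the sulfate donor enzyme Papss2 (52.1-fold), the protease inhibitor Spink3 (90.1-fold) and the lectin-like Clec2h (57.2-fold). The secreted Reg proteins Reg3a and Reg1 were 161.5-fold and 48.4-fold higher, with Reg1 absent from 16 gated cells and reaching 30930 CPM in 1.

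Structural and mitochondrial genes differed less. Of 22 brush border and junction genes 12 were higher and 1 lower, and Krt20, a keratin of the villus and the surface epithelium, was 27.02-fold higher (23.6 to 30.9). Of 20 genes of fatty acid oxidation and ketogenesis 10 were higher and none lower. Of 25 nuclear genes of oxidative phosphorylation only Sdhb passed 2-fold, while the list's sum was 29510 against 18950 CPM, above the median of the other cells in 70 of 71 gated cells. The mitochondrial share of UMIs, which stands beside this, was 13.3% against 10.9% in median.

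Lists of genes from regions of the gut and zones of the villus were compared next. Of 11 tested duodenal and jejunal genes 6 were higher, and of 9 ileal genes 8 were higher, although the tissue was proximal. Among them, 2 duodenal and jejunal genes and 1 ileal gene reached the UMI minimum only with the gated cells, so the filter set their call. Of the genes that reached it in the other cells alone, 4 of 9 duodenal and jejunal and 7 of 8 ileal genes were higher. These lists share genes with the hydrolase and lipid lists (among them Lct, Rbp2 and Mep1b), so they are not independent descriptions. Of 12 villus bottom genes 9 were higher and 1 lower, and of 12 villus tip genes 5 were higher and 2 lower. Apoa4, Creb3l3, Apobec1, Serpinb1a and Cdkn1a were the higher tip genes. The tip genes Ada, an adenosine deaminase, and Egfr were lower, Ada at 3.95 against 17.02 CPM.

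Among transcription factors, 13 of 31 were higher and 2 lower. Creb3l3, a membrane-bound factor of lipid metabolism, was 41.6-fold higher (35.1 to 49.4) and found in 63 gated cells. Maf was 14.2-fold higher (11.2 to 17.8) and the nuclear receptor Nr1i3 12.9-fold. Hnf4g was 4.70-fold higher (4.13 to 5.32), at 275.2 against 58.6 CPM. Its paralogue Hnf4a was at 150.9 against 154.3 (ratio 0.979, 0.828 to 1.15) and the intestinal identity factor Cdx2 at 127.3 against 138.2 (0.921, 0.767 to 1.10), so neither differed beyond counting error, though both lie above the median gene's log2 ratio of -0.36.

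Stem cell and cell cycle genes were low. Of 31 stem cell markers 28 were at least 2-fold lower and none higher, with a median log2 ratio of -2.85. Lgr5, whose promoter drives the sorted GFP, had 1 UMI in 71 gated cells, against 46.2 CPM in the others (46.8-fold lower, 8.39 to 1851). Olfm4, a secreted stem cell marker, had 8 UMIs in 5 gated cells and was 57.0-fold lower (28.9 to 132). Of 28 genes of DNA replication 27 were lower, and of 32 mitosis genes 31 were lower, with median log2 ratios of -3.70 and -5.03 (-3.77 and -4.37 with genes at 0 set to their bounds). Mki67, a proliferation antigen, had 8 UMIs in 5 gated cells against 284.0 CPM in the others (36.0-fold lower, 18.3 to 83.4). The replication factor Uhrf1 and the spindle gene Hmmr had no UMI in gated cells and were at least 24.2-fold and 20.8-fold lower. Of 17 genes of the absorptive progenitor and the Notch response, which steers progenitors away from secretory fates, 14 were lower and none higher, at 580.1 against 3921 CPM. No gated cell exceeded the median summed level of the other cells for stem cell or replication genes, and 4 exceeded it for mitosis genes.

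The genes lowest in the gated cells included markers of secretory cells: Mptx1, Itln1 and Ang4 of Paneth cells, and the hormone genes Gip and Sst. Sst had 0 UMIs in gated cells, at least 29.7-fold lower, and Itln1 13 UMIs, 121-fold lower (70.8 to 228). Members of the alpha-defensin family (such as Defa5 and Defa22) have near-identical copies, so reads may be split among them. All 15 tested Paneth, 13 of 14 goblet and 12 of 28 enteroendocrine markers were at least 2-fold lower. The 2 enteroendocrine markers that were higher, the granule genes Chga and Scg3, had 98.8% and 90% of their gated UMIs in 1 cell. Without the cell of the enteroendocrine gate the list was at 44.6 CPM in place of 870.1, against 1488 in other cells. Of 14 tuft cell markers 10 were lower and 1 higher, and of 10 immune markers 6 were lower and none higher. The only stromal marker tested, Vim, was lower. When the other cells were limited to those outside the 4 secretory gates, the goblet list was no longer lower (log2 ratio of its sum 0.62), a direction that this choice of cells sets.

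**Figure D3:**
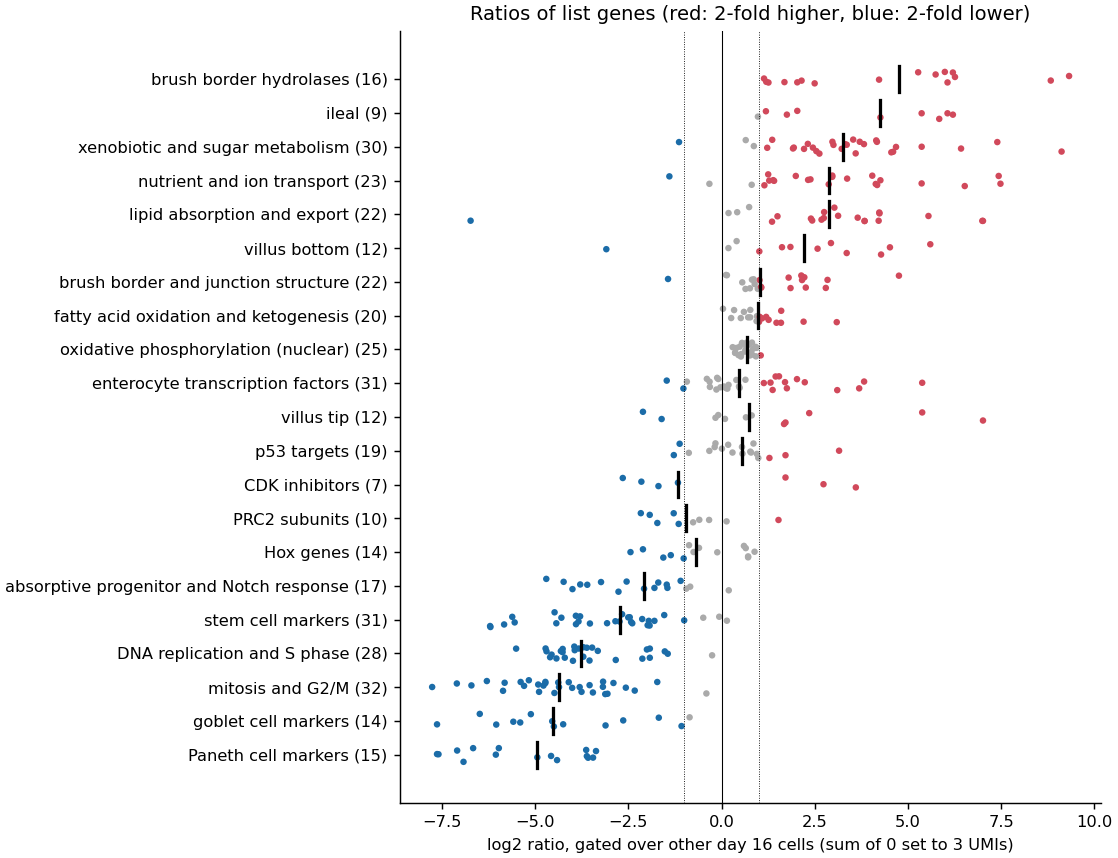
Each point is a tested gene of the named list (number of genes in brackets), at its log2 ratio of gated over other day 16 cells; red is at least 2-fold higher, blue at least 2-fold lower, grey neither, and the bar is the median. Absorptive lists lie to the right, with the 16 tested hydrolases red, and cell cycle, stem cell and secretory lists to the left.

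The CDK inhibitors, proteins that stop the cell cycle, divided into 3 higher and 4 lower of 7 tested genes. The summed list was 2.86-fold higher in gated cells (2.65 to 3.08) while the median log2 ratio was -1.14. The 3 higher genes held most of the list's UMIs in gated cells. Cdkn2a, a classical Polycomb target that encodes p16Ink4a and p19Arf, which 3′ counts do not separate, had 155 UMIs in 28 gated cells. Its highest count was 18 UMIs in a cell. Its pooled level was 152.9 CPM in gated and 23.0 in other cells, 6.65-fold apart (5.56 to 7.91), and the gated cells, 2.54% of the library, held 16.4% of its 944 UMIs. The neighbouring gene Cdkn2b, which encodes p15Ink4b, was more evenly spread, in 61 gated cells with at most 3.65% of its UMIs in any of them, and was 12.1-fold higher (10.2 to 14.3). Cdkn1a, which encodes p21, was found in 65 gated cells and was 3.28-fold higher (2.94 to 3.66). Cdkn1b (25 UMIs), Cdkn1c (6), Cdkn2c (5) and Cdkn2d (2 UMIs in gated cells) were lower.

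Cdkn2a did not follow the enterocyte markers in a single direction. The gated cells were divided by marker share into a low, a middle and a high group of 24, 24 and 23 cells. Cdkn2a was at 359.1 CPM (294 to 435) in the low, 108.8 (78.4 to 147) in the middle and 23.9 (10.3 to 47.0) in the high group. It was found in 14, 10 and 4 of these cells. Among cells outside the gate its level was 14.3 CPM in 1933 cells with a marker share under 0.05%, 26.5 in 581 cells from 0.05 to 0.1%, 61.4 in 145 cells from 0.1 to 0.2% and 114.2 in 58 cells from 0.2 to 0.4%. The level was thus highest just above the threshold and lower on both sides. In the high group it was within the range of levels outside the gate. Grouped by markers detected, Cdkn2a was at 412.9 CPM in 18 cells with 3 or 4 markers, 146.0 in 17 with 5 and 45.1 in 36 with 6.

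The pooled Cdkn2a ratio depended on how the gate was set. With Fabp1 left out of the rule, 34 cells met it and the log2 ratio of Cdkn2a was -0.55, against 2.73 with Fabp1. With the threshold at 0.8% it was 1.22, and with at least 5 markers 1.60. Cdkn2b and Cdkn1a kept log2 ratios of 3.00 to 3.96 and 1.15 to 2.27 over the 12 alternatives computed. Along the same marker scale Cdkn2b was at 6.44, 17.9, 55.6 and 128.3 CPM outside the gate and at 239.4, 171.0 and 167.1 in the low, middle and high groups. Cdkn1a was at 489.0, 316.0 and 271.5 CPM in the low, middle and high groups. Mki67 was at 206.6 CPM in the cells from 0.2 to 0.4% and at 23.9, 2.59 and 0 in the low, middle and high groups.

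**Figure D4:**
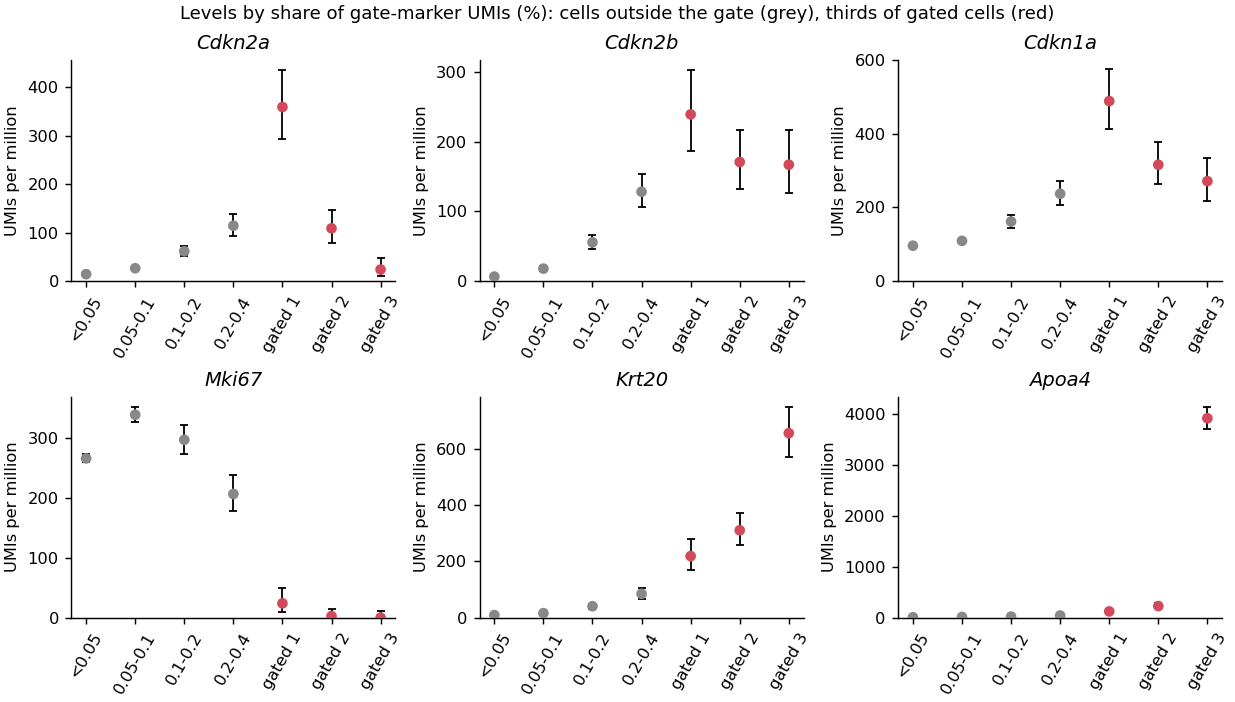
Pooled CPM of 6 genes in day 16 cells ordered by their share of gate-marker UMIs, in 4 groups outside the gate (grey) and the low, middle and high groups of gated cells (red), with 95% Poisson intervals for counting error. Cdkn2a peaks at 359.1 in the low group, Mki67 is at 23.9 or below from there on, and Apoa4 is high in the high group.

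Absorptive genes followed the marker share, which the division by that share partly sets. The lipid list was at 4049, 6496 and 28150 CPM from the low to the high group and the hydrolases at 2815, 3883 and 10440. Apoa4 was at 123.1, 227.9 and 3926 CPM. Several genes had most of their positive cells in the high group: Lct was found in 0, 1 and 16 cells, Slc2a2 in 1, 0 and 19, Slc15a1 in 0, 7 and 19, and Cyp3a11 in 0, 5 and 20. Other enterocyte genes were already present in the low group. Rbp2 was found in all 24 of those cells at 1624 CPM, Creb3l3 was at 225.7 against 450.5 in the high group, and brush border structure was flat at 11820, 11610 and 11020. Median mitochondrial shares were 12.1, 12.7 and 15.9%, and their part in these differences was not tested.

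Shares of cells with a UMI were compared after each cell was thinned to 2500 UMIs, which lost no kept cell. Cdkn2a was found in 13 of 71 gated cells (18.3%, 10.1 to 29.3%) and in 4.23% of all other cells (39.4% and 12.6% without thinning). It was also found in 27 of 202 cells of the Paneth gate (13.4%, 8.997 to 18.8%), in 31 of 300 cells of the goblet gate that are not gated here (10.3%, 7.13 to 14.3%) and in 5 of 91 cells of the enteroendocrine gate (5.49%, 1.81 to 12.4%). It was found in none of 33 tuft-gated cells, where the exact interval reaches 10.6% and 3 counts would be 9.09%. The interval of the gated cells overlapped those of all 4 secretory gates, and a difference from any of them was not tested. Without thinning, against 39.4% of gated cells, the shares were 31.7% in the Paneth and 26.0% in the goblet gate. They were 12.1% in the enteroendocrine and 0% in the tuft gate. Median depths of these 2 gates were 6437 and 7435 UMIs, against 13424 in gated cells. Goblet and Paneth gates overlap in content, Muc2 being found in 84.2% of the Paneth gate. Cdkn2b was found in 31.0% of gated cells (20.5 to 43.1%), and its intervals in the goblet, Paneth and enteroendocrine gates had upper bounds of 7.30, 8.92 and 19.3%. Cdkn1a was found in 49.3% of gated cells (37.2 to 61.4%) and in 17.1% of all others. In the enteroendocrine, tuft, goblet and Paneth gates its shares were 56.0, 42.4, 33.0 and 26.7%, so a high share was not particular to the gated cells. Lgr5 was found in none of the 71 gated cells, where the exact interval reaches 5.06% and 3 counts would be 4.23%, and in 11.4% of all others. It was found in 2.20% of the enteroendocrine, 2.33% of the goblet, 3.03% of the tuft and 5.45% of the Paneth gate. A low share of Lgr5 was therefore not particular to the gated cells.

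**Figure D5:**
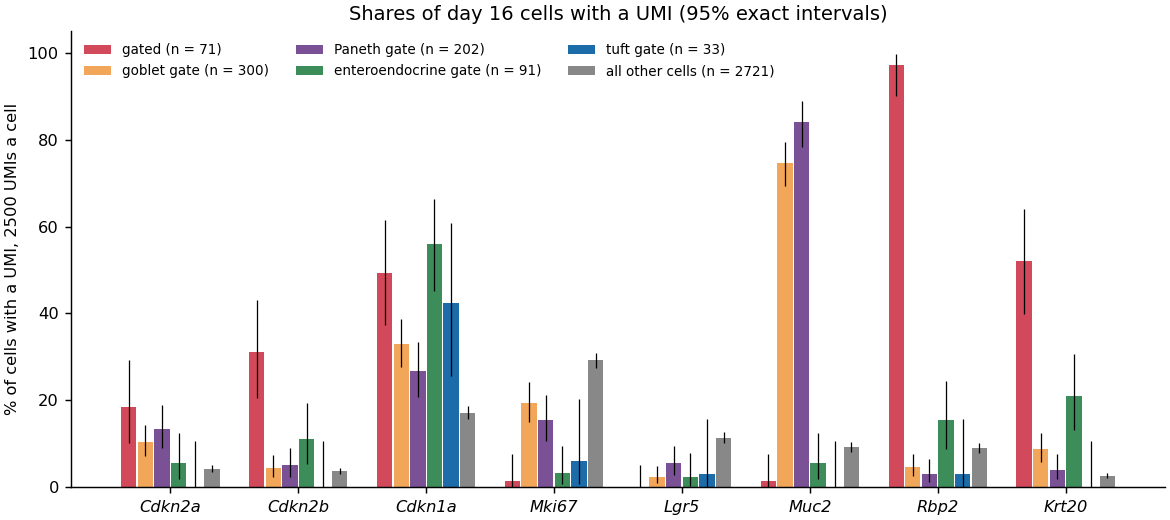
Percentage of day 16 cells with at least 1 UMI of each gene after thinning to 2500 UMIs, for gated cells, the 4 secretory gates without gated cells and all other cells, with 95% exact intervals. Cdkn2b, Rbp2 and Krt20 are highest in gated cells, while the Cdkn2a interval of gated cells overlaps those of all 4 secretory gates. Cdkn1a is at 49.3% in gated cells and 56.0% in the enteroendocrine gate. Differences between the gates were not tested.

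Genes of the Polycomb complex and of its usual targets were then compared. Of 10 tested PRC2 subunits 5 were at least 2-fold lower and 1 was higher, the list being at 253.5 against 640.6 CPM. The catalytic subunit Ezh2 was at 25.6 against 115.1 CPM (4.49-fold lower, 3.06 to 6.88) and Suz12 2.22-fold lower (1.67 to 3.02). The alternative catalytic subunit Ezh1 was at 12.8 against 11.7, with an interval of the ratio from 0.579 to 1.90. Cell cycle genes, among which Ezh2 is often counted, were lower in the same cells. Of 14 tested Hox genes none was 2-fold higher and 5 were lower, each with 1 or 2 UMIs in gated cells. Over all tested genes 9.89% were higher and 26.5% lower, the background for each count in this paragraph. The 39 Hox genes summed to 38 UMIs, at 75.2, 25.9 and 17.9 CPM from the low to the high group. The posterior gene Hoxb13 contributed 15 UMIs in 10 gated cells, at 14.8 against 9.44 CPM, with a ratio interval of 0.867 to 2.62. Of 19 tested developmental factors outside the Hox clusters only Pax3 was higher (2.71-fold, 1.14 to 5.54, 8 UMIs) and 6 were lower. Of these 19, 18 reached the UMI minimum in the other cells alone, with the same 1 higher and 6 lower. The median of this list was -0.47, or 0.35 with genes at 0 set to their bounds, so it has no firm sign at this depth.

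Lists of stress and interferon genes were compared last. Of 19 p53 targets 3 were higher (Cdkn1a, Fas and Sesn1) and 2 lower (Aen and Gdf15). The shares of all tested genes, 9.89% higher and 26.5% lower, are the background for these lists too. Fas, a death receptor, was at 20.7 against 2.33 CPM, with 14 of its 21 UMIs in the high group. Of 21 immediate-early and heat shock genes 1 was higher and 1 lower, and the list median of -0.08 turns positive when the median gene is set to 0. Of 13 tested interferon-stimulated genes 6 were higher and none lower. Among these 6, 1 gene reached the UMI minimum only with the gated cells, so the filter set its call. Of the 12 that reached it in the other cells alone, 5 were higher. The list was at 193.4 against 88.1 CPM (2.19-fold, 1.89 to 2.54), but 1 cell reached 5180 CPM for the list. A single cell held 54.3% of the Isg15 UMIs.

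The same rule found 2 of 3833 cells at day 7 (0.0522%, 0.00632 to 0.188%) and 10 of 4664 at day 12 (0.214%, 0.103 to 0.394%), against 2.54% at day 16. With cells thinned to 2500 UMIs before gating the numbers were 2, 9 and 65. The interval of day 16 lies above the others, but each day is 1 library, so day and library cannot be told apart, and the day 16 library was also the deepest and had the highest mitochondrial shares. Few as they were, the earlier cells carried higher marker shares, 6.80 and 7.33% at day 7 and a median of 3.98% at day 12, and 8 of the 10 day 12 cells reached 1%. Cdkn2a had no UMI in the 2 day 7 cells or the 10 day 12 cells, which held 19703 and 190353 UMIs in all. It also had no UMI in the other day 7 cells and 51 UMIs (1.27 CPM) in the other day 12 cells, so these zeros do not set the gated cells apart from their own libraries.

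Genes set apart at day 16 were compared with those at day 12, where 11.1% of 11664 tested genes were 2-fold higher in gated cells and 27.6% lower. Of 971 genes higher at day 16 and tested at day 12, 619 were higher there too (63.7% of these, and 50.4% of those higher at day 12). Of 2898 lower genes 1341 were lower at day 12 (46.3% and 42.1%). The rule was the same on both days, so the overlap is a description. Rbp2 was at 12180 CPM in gated and 13.6 in other cells at day 12, Apoa4 at 3520 against 0.324, and Krt20 at 756.5 against 2.67.

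Reg3b and Reg3g are antibacterial lectins, and their levels in gated cells differed between the libraries. Reg3b took 92820 CPM in the day 12 gated cells, between 405 and 4254 UMIs in each of the 10, and 50090 in the day 7 cells, against 1819 at day 16. It was also higher in the cells outside the gate on those days, at 5965, 2743 and 93.8 CPM at days 7, 12 and 16. Reg3g was at 3147, 30490 and 961.9 CPM in gated cells and at 1559, 1143 and 94.0 in the others, in the same order of days. Of the genes of MHC class II, which present antigen to T cells, 5 of 6 tested were lower in day 16 gated cells, the list being at 51.3 against 140.7 CPM (ratio 0.365, 0.272 to 0.479). The gated level rests on 52 UMIs in 22 cells. At day 12 the gated cells were above the others, at 2170 against 1034 (2.10-fold, 1.90 to 2.31), and at day 7 at 5938 against 1562. The invariant chain Cd74 was found in 9 of the 10 day 12 cells. In thinned day 16 cells Cd74 was found in 2.82% of gated cells (0.343 to 9.81%) and in 12.8% of the others. The class II gene H2-Ab1 was found in 5.63% (1.56 to 13.8%) and 5.51% in the same order. The xenobiotic gene Gsta1 was at 507.5, 451.8 and 1799 CPM in gated cells at days 7, 12 and 16, and at 0.169, 0.748 and 10.7 CPM in the other cells of those days.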

How the data were processed

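RNA of sorted intestinal epithelial cells was counted with a droplet 3′ kit in 1 library each of days 7, 12 and 16. The deposited values are raw UMI counts, 1 matrix a library, listing all 6794880 barcodes and 24052 gene symbols, not normalized. Cell Ranger 3.0.2 and the build mm9 are named in the submitters' processing notes. The bulk RNA and chromatin files of the series were not used here. Kept barcodes had at least 2500 UMIs, at least 500 genes and at most 20% mt- UMIs; library totals were 40817192, 46071956 and 42742373 UMIs, and their number limits the precision.

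UMIs were summed over gated and over other cells and expressed as CPM, counts per 1000000 of each sum. Ratios carry exact conditional Poisson intervals and shares exact Clopper-Pearson intervals, at 95%, for counting error only; a sum of 0 was set to 3 UMIs as a bound, and list medians used 0.5 added to each sum. Genes with at least 50 UMIs were called at 2-fold. The cells, the 33 gene lists and the gate were chosen with earlier results of these data known. The genes named are the 6 markers, Lgr5, Olfm4, Mki67, Cdkn2a, Eed, Ezh2, the 20 highest and 15 lowest ratios among genes of at least 200 UMIs (clone identifiers left out) and up to 6 members of each list with the largest ratios; other list members, and the values of splits by day or cell group, were chosen after their values were seen. The part of the rule on genes that differ between days 7 and 16 was not applied, because day 7 had 2 gated cells. No doublet caller was run; 4 gated cells had more than double the median UMIs. Promoters (250 bases before the start) came from RefSeq, GRCm38.p6. The calling script was tested on simulated data. Python 3.11.15, NumPy 2.4.6, SciPy 1.17.1, pandas 2.3.3 and Matplotlib 3.10.9 were used. Some results are not reported here. Alternatives changed the gate, the cell filters, the gene minimum, the scaling and the cells compared.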

Additional observations from a re-analysis of the deposited data

Results flagged for a closer look

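The MHC class II list was on opposite sides in 2 libraries: its level in gated over other cells was 0.365 at day 16 and 2.10 at day 12, and the difference between the days was not tested, as each is 1 library. The day 16 value rests on 52 UMIs in 22 gated cells. Barcodes above the mitochondrial limit, which enter no comparison of the report and only the alternative with a higher limit, met the marker rule in 28 of 317 cases at day 16 (8.83%, exact interval 5.95 to 12.5%), against 2.54% of the kept cells. Their median marker share was 2.11%. At day 12 the numbers were 12 of 123 and at day 7 they were 4 of 191.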

How the results depend on the processing

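The share of day 16 cells in the gate moved from 2.54% to 4.48% with the threshold at 0.2% of UMIs, 1.54% at 0.8%, 1.90% with at least 5 markers and 1.22% without Fabp1. At most 10% mt- UMIs gave 0.570% at day 16, 0.0223% at day 12 and 0% at day 7, and left 5 gated cells of 878 at day 16, with 1428 genes higher and 762 lower instead of 1104 and 2961. Centring on the median gene gave 1785 higher and 2048 lower. The other 43 of 52 shares and gene counts stayed within their interval or 1.5 times, including a limit of 50% mt- UMIs that was chosen after seeing the data. Ratios that were at least 2-fold changed direction rarely. Of 270 such sums of lists, 2 did: interferon-stimulated genes (log2 ratio -0.63 at 10% mt- UMIs) and goblet markers (0.62 against cells outside the secretory gates). Of 294 list medians, 3 did: enteroendocrine markers (0.011 and 1.82 in those settings, in that order) and CDK inhibitors (0.063 at 10% mt- UMIs). Of 1882 gene ratios, 7 did: Pls1 (-0.50), Reg3b (-1.83), Ada (0.11) and Gdf15 (1.11) at 10% mt- UMIs, Hoxa5 (0.20) at the 0.2% gate, Cdkn2a (-0.55) without Fabp1, and Muc2 (0.47) against cells outside the secretory gates. Of ratios under 2-fold, 6 of 96 sums, 6 of 140 medians (1 when centred, immediate-early and heat shock genes) and 3 of 185 genes changed sign. The 10% setting rests on 5 gated cells and leaving out the secretory gates removes the secretory cells; otherwise the cause was not tested. Genes with few UMIs in the 1013648 of the gated cells, such as Hox genes, are limited by depth. No paired analysis was possible because each day is 1 library and the results come from no test.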
